A study of Mus musculus with 4 samples.

Results

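The nuclear genes whose symbols mark them as subunits of the mitochondrial respiratory chain and ATP synthase were followed through single-nucleus RNA sequencing of mouse forebrain after stroke. Members were all genes of the count tables whose symbol begins with Ndufa, Ndufb, Ndufc, Ndufs or Ndufv (complex I), is Sdha, Sdhb, Sdhc or Sdhd (complex II), or begins with Uqcr (complex III), Cox4 to Cox8 (complex IV) or Atp5 (complex V). With 4 symbols of ps or os endings left out, this gave 92 of 46983 genes. They were 38 complex I subunits, 7 complex I assembly factors (symbols beginning Ndufaf), 4 genes of complex II, 8 of complex III, 18 of complex IV and 17 of complex V. By its symbol Ndufa4, now known as a complex IV subunit, was counted in complex I in all sums, with 41355 of that list's 370459 UMIs in free RNA. The rule read symbols alone and used no measured value. All animals were male C57Black/6 mice of 3 months with no other genotype given, and the groups were a sham control and animals taken 1, 3 or 7 days after permanent MCAO, the lasting closure of the middle cerebral artery by electrocoagulation, which models a stroke. Each group held 1 library of 3 pooled forebrain hemispheres, so no difference below has a replicate check, no p-value was computed, and the 95% intervals reflect counting error alone. The surgical notes of the labels name uninjured cortex as control tissue, whereas the other labels name hemispheres and a sham condition. The numbers of nuclei that the study's own figure gives by time point match the deposited libraries only with day 3 and day 7 exchanged, so these are called the library labelled day 3 and the library labelled day 7, and no order over time is drawn from them. This rests on numbers of nuclei alone, and whether the labels are exchanged was not tested.

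The respiratory chain passes electrons from NADH (complex I) and succinate (complex II) through complex III to oxygen at complex IV, and complex V uses the proton gradient this builds to make ATP. A few subunits at the core of complexes I, III, IV and V are encoded by the mitochondrial genome itself, while the members described here are transcribed in the nucleus, spliced, exported and translated in the cytosol before import into mitochondria. Neurons depend heavily on this pathway, and it stops when blood flow, and with it oxygen, is cut off. Several complex IV subunits and the complex V ring subunit have more than 1 gene, with isoforms known from heart and muscle, lung or testis.

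Droplets that hold no nucleus still hold RNA from lysed cells, called free RNA here and taken from barcodes of at most 1000 UMIs (unique molecular identifiers, counted molecules). The total count per library was 23285489 to 42963698 UMIs, of which 52.2% to 60.4% fell in nuclei. After calling and doublet removal 7798 nuclei were kept, 1019 to 3093 per library, and 9 of their barcodes occurred in 2 libraries. By their marker genes 63.5% of nuclei were neuronal, 15.1% oligodendrocyte-like and 6.19% astrocyte-like. Levels in CPM are UMIs of a gene or list scaled to a common total in nuclei, a class or free RNA. They are not divided by gene length, and an order of CPM between genes is one of counted UMIs.

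RNA of the members lay mostly outside nuclei. Together they made up 1.97% of free-RNA UMIs (1004516 of 51104089) and 0.340% of nuclear UMIs (217852 of 64120959), a ratio of nuclei to free RNA of 0.173. In free RNA the summed level was 21688 CPM in sham control, 22487 at day 1, 18587 in the library labelled day 3 and 16987 in the library labelled day 7. In nuclei it was 3403, 3265, 3677 and 3074 CPM in the same order. Free RNA thus held the higher share in all 4 libraries, with ratios of 0.157, 0.145, 0.198 and 0.181. The 13 mRNAs encoded by the mitochondrial genome, which are never made in the nucleus, had a ratio of 0.340 over all libraries, and the 87 cytosolic ribosomal protein genes, whose short and abundant mRNAs are translated in the cytosol, one of 0.146. The mitochondrial mRNAs differed more between libraries than the members, from 0.187 at day 1 to 0.541 in sham control.

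**Figure D1:**
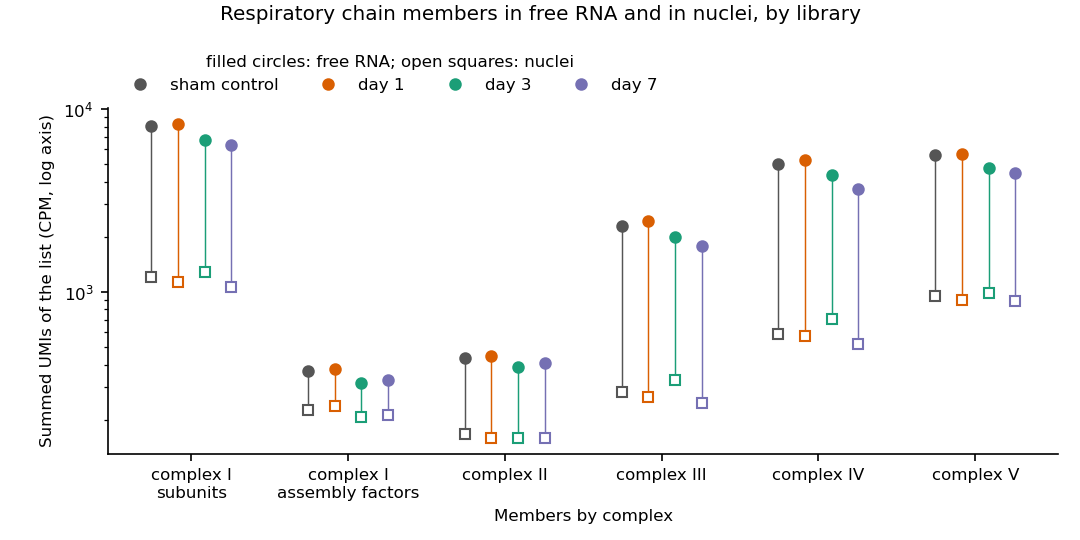
Summed UMIs of the members of each complex (CPM, log axis) in free RNA (filled circles) and in nuclei (open squares), with 1 point per library and a line joining the 2 compartments of a library. Every circle lies above its square, and the gap is shortest for the complex I assembly factors, whose ratio over all libraries was 0.638, and for complex II at 0.389.

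The complexes differed in this. By summed UMIs, complex IV (0.135), complex III (0.137) and the complex I subunits (0.163) had the lowest ratios, followed by complex V (0.186). The order was another by the median over members with at least 100 nuclear UMIs. It was 0.113 for complex III, 0.135 for complex I subunits, 0.149 for complex IV and 0.172 for complex V. The sums of complex IV and complex I lack Cox4i1 and Ndufa13, which had no UMIs, so the order of complexes III and IV is not firm. With Ndufa4 counted in complex IV, a choice made after seeing the data, complex IV had 0.128 and the complex I subunits 0.173. The 7 catalytic core subunits of complex I, which carry its flavin and iron-sulphur clusters, stood at 0.285, complex II at 0.389, and the assembly factors, which build complex I but are no part of it, at 0.638. Member by member, 87 of the 92 had at least 100 UMIs in nuclei, and of these 79 lay more than 1.5-fold lower in nuclei than in free RNA (90.8%), against 32.6% of the 15316 genes with as many nuclear UMIs. No member lay more than 1.5-fold higher, against 26.6% of those genes. The median ratio was 0.154 for the members and 0.992 for all these genes. In the groups, all 8 genes of complex III, all 4 of complex II and 36 of 37 complex I subunits lay past 1.5-fold, but 4 of the 7 assembly factors.

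The member with the most UMIs in free RNA was Cox8a, the ubiquitous subunit 8 of complex IV (chromosome 19, 7215153 to 7217616, minus strand, GRCm38). Its free-RNA level was 877 CPM in sham control, 952 at day 1, 934 in the library labelled day 3 and 615 in the library labelled day 7, against 88.7, 92.2, 143 and 85.0 CPM in nuclei. The library labelled day 7 was the lowest in both compartments, while the library labelled day 3 was the highest in nuclei only. Ndufa4 (chromosome 6, 11900292 to 11907497, minus strand), followed with 920, 848, 789 and 700 CPM in free RNA and 70.4, 65.5, 86.7 and 59.2 CPM in nuclei. The further complex IV members with the most free UMIs were Cox6c (611 CPM in free RNA and 71.1 in nuclei over all libraries) and Cox5a (500 and 73.4), both structural subunits around the catalytic core. In complex V they were Atp5b, the catalytic beta subunit (570 and 97.8 CPM), Atp5h, the stalk subunit d (554 and 62.7), and Atp5a1, the alpha subunit (400.6 and 114). Beside Ndufa4, complex I was led by the accessory subunits Ndufc2 (398 and 42.6) and Ndufb9 (357 and 49.1), and complex III by the small subunits Uqcrh (405 and 54.1), Uqcrq (380 and 39.7) and Uqcr10 (319 and 29.1). Levels in complex II were lower, with Sdha, the flavoprotein, at 152 CPM in free RNA and 79.3 in nuclei, Sdhb, the iron-sulphur subunit, at 122 and 42.3, and Sdhc, a membrane anchor, at 81.7 and 28.6. The assembly factors with the most free UMIs were Ndufaf4 (80.3 and 44.3), Ndufaf3 (61.5 and 9.89) and Ndufaf7 (60.6 and 67.3).

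Members of different complexes were spread over the chromosomes, and their start regions were compared for the letters of factors known to act on this pathway. RefSeq windows of GRCm38.p6 (250 bases before to 50 after the start) were at hand for 73 of the 92 members. The palindrome of NRF1 occurred in 7 of them (9.59%), against 0.971% of all 32851 windows, and its shorter core GCATGCGC in 12 (16.4% against 2.71%). The ETS motif CCGGAAG, read by GABPA, occurred in 17 (23.3% against 8.86%), and the YY1 motif AAGATGGCG in 7 (9.59% against 1.4%). At least 1 of the 3 shorter motifs was present in 30 members (41.1%) and in 12.1% of all windows. Both strands were searched, the NRF1 core lies within the palindrome, and the ETS and YY1 letters can overlap by the shared AAG. A match is a description of letters and not a bound site. To show such letters, 1 window with a match is given for each of complexes I, III, IV and V, the member with the highest free-RNA level that has one, 5′ to 3′ on the gene's strand with the match in capitals. In Ndufa11 the capitals mark the NRF1 palindrome, in the other 3 the ETS motif, which reads CTTCCGG on that strand and occurs at 2 places in Cox8a.
Ndufa11 (chr17:56717512-56717811, plus strand): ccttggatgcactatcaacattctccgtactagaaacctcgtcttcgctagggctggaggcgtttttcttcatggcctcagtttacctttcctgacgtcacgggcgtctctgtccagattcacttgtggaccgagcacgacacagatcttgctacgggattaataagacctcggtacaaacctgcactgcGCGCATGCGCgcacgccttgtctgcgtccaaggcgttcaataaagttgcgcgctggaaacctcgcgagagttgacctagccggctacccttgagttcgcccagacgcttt
Uqcrh (chr4:116075021-116075320, minus strand): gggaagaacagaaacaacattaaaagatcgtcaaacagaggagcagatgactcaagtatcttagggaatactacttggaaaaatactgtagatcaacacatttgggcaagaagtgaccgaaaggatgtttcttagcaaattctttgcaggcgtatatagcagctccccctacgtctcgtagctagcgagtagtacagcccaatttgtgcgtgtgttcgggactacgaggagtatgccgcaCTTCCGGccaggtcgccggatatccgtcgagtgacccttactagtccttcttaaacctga
Cox8a (chr19:7217567-7217866, minus strand): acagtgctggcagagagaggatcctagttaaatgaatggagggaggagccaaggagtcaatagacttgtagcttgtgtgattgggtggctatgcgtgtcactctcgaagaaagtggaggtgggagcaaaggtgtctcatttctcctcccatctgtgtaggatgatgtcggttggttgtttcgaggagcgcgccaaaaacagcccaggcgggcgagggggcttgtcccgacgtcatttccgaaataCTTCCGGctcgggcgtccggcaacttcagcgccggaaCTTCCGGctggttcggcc
Atp5h (chr11:115419870-115420169, minus strand): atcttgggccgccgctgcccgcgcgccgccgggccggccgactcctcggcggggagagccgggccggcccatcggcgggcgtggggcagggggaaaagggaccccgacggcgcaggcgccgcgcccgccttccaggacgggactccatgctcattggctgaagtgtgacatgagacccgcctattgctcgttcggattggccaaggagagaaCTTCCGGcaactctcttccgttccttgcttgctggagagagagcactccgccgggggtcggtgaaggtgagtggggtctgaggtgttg

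The ratio of nuclei to free RNA was higher in members that span more of the genome. Counting took in introns as well as exons, and the part of unspliced RNA in the ratio was not tested. The 27 members that span at most 5000 bases had a median ratio of nuclei to free RNA of 0.105, the 29 from 5000 to 10000 bases 0.147, the 17 up to 20000 bases 0.205, the 11 up to 50000 bases 0.350 and the 3 longer ones 0.657. Other genes were likewise higher with span, from 0.382 to 1.38 over the same ranges, and their median lay above that of the members in each range. Across the 87 members Spearman's rho of span and ratio was 0.63, and across 15176 other genes 0.52 (genes of the same libraries, which are not independent). The members' median span was 7674 bases against 26228 for the other genes. Ribosomal protein genes held near 0.146 from the shortest range (0.143) to the 2 genes of 20000 to 50000 bases (0.146).

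**Figure D2:**
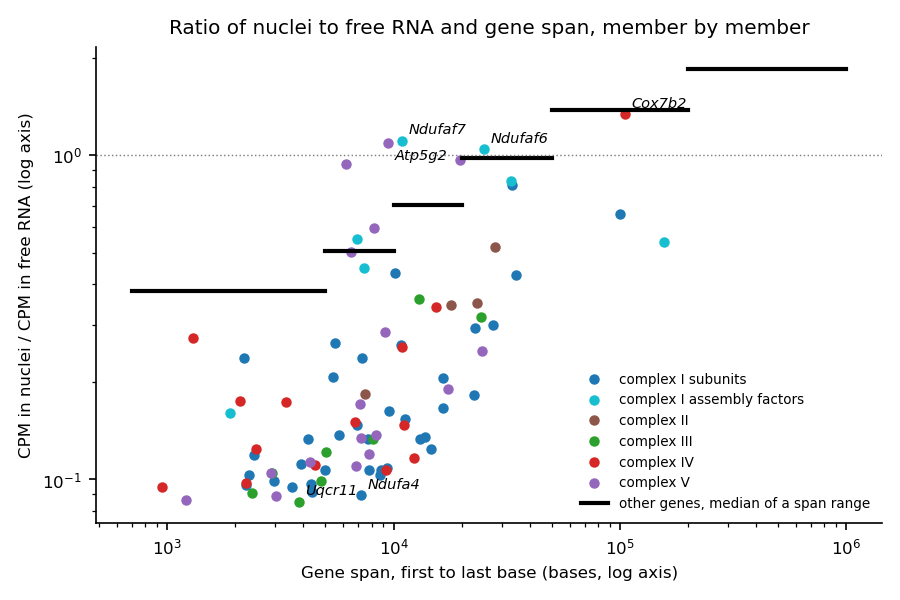
Ratio of CPM in nuclei to CPM in free RNA (log axis) against gene span in bases (log axis), 1 point for each of 87 members with at least 100 nuclear UMIs, coloured by complex, with black bars for the median of other genes in 6 span ranges. Points rise from 0.0854 (Uqcr11) to 1.34 (Cox7b2), and most lie under the bar of their range.

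Of these 87, the lowest ratios belonged to short genes. Uqcr11, a small subunit of complex III, had 0.0854 (interval 0.0811 to 0.0899), Atp5k, subunit e of ATP synthase, 0.0864 (0.0827 to 0.0903), Atp5e, subunit epsilon of its rotor, 0.0890 (0.0848 to 0.0934), Ndufa4 0.0896 and Uqcr10 0.0910. At the other end 4 members were not below 1. Cox7b2, the isoform of complex IV subunit 7b best known from testis, spans 105382 bases and stood at 1.34 (1.16 to 1.56) on 485 nuclear UMIs. Ndufaf7, a methyltransferase that acts on complex I as it is built, had 1.11 (1.06 to 1.16), while the intervals of Atp5g2, 1 of 3 genes for ring subunit c (1.09, 0.976 to 1.22), and of Ndufaf6 (1.05, 0.971 to 1.13) took in 1. Atp5s, a relative of a coupling factor, came next at 0.968.

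Both lists of other pathway genes had higher summed ratios than the members. Of the listed carriers and assembly factors, 33 of 36 had at least 100 nuclear UMIs, of which 16 lay more than 1.5-fold lower in nuclei (48.5%, against 32.6% of all genes) and 2 higher (6.06%, against 26.6%), with a summed ratio of 0.467. Low ones included cytochrome c (Cycs, 0.130), which carries electrons between complexes III and IV, and the assembly factors Cox14 (0.106) and Uqcc2 (0.121) of complexes IV and III. The 2 higher ones were the haem synthesis gene Cox10 (1.52) and Acad9 (1.53), both assembly genes. The 11 transcriptional regulators had a summed ratio of 1.35, with the nuclear receptor Esrrg at 2.13 and the coactivator Ppargc1a at 1.23. Of these 11, Tfam (0.366), which packages mitochondrial DNA, was the 1 that lay more than 1.5-fold lower in nuclei (9.09%), and Esrrg and Ppargc1b (1.80) the 2 that lay higher (18.2%).

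Not all members could be counted on equal terms. Cox4i1, the main subunit 4 of complex IV, and Ndufa13 had 0 UMIs in every library, where 3 UMIs would be 0.0587 CPM in free RNA and 0.0468 in nuclei, and Cox8c had 2. On the same strand Cox4i1 is overlapped by Gm20388, for which 26399 UMIs were listed in free RNA and 60523 in nuclei, and Ndufa13 by Yjefn3, with 1340 and 480. UMIs shared by several genes were filtered in the counting, and how reads that fit several genes were treated is not stated, so for both genes a count of 0 says nothing of their expression. In all, 12 members overlapped a gene on the same strand and 40 on either strand, and 28 shared at least 1 stretch of 50 bases at their 3′ end with another annotated gene. Values of Ndufb8 (overlapped by Gm20538), Ndufs5 (43.5% of its 3′ stretches also in BC002163), Atp5l (75.2%, shared with 13 genes), Atp5h (60.3%, with 3), Atp5o (57.4%, with 2), Ndufs3 (53.9%, with 2), Uqcrb (46.6%, with 4), Cox7c (40.8%, with 3) and Ndufb2 (overlapped by Gm42420) are uncertain for this reason.

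Classes of nuclei differed in their level of the members. By summed UMIs over 4 libraries, and leaving aside unnamed clusters 15 (14647 CPM) and 22 (3413 CPM), endothelial-like nuclei were highest with 10906 CPM, followed by astrocyte-like (5601), fibroblast- or meningeal-like (5357), microglia-like (4813), oligodendrocyte-like (4708), ependymal-like (4369), oligodendrocyte-precursor-like (3675), GABAergic-like (3659), striatal-projection-neuron-like (2964), unnamed neuronal (2915), dentate-granule-like (2831) and glutamatergic-like nuclei (2568). The counting intervals of astrocyte-like and fibroblast-like, of microglia-like and oligodendrocyte-like, and of precursor-like and GABAergic-like nuclei overlapped, as did those of unnamed neuronal nuclei with both neighbours in that order. Endothelial-like nuclei were above all other named classes in each library, at 10829 CPM in sham control (40 nuclei), 14604 at day 1 (6 nuclei), 10457 in the library labelled day 3 (72) and 11550 in the library labelled day 7 (21). Against neuronal nuclei they stood 3.78-fold higher (3.70 to 3.87), and 81 of 88 members counted were higher in them, against 63.5% of all genes. Other RNA found mainly outside nuclei was higher there too, with mitochondrial mRNAs at 20541 CPM against 1027 in neuronal nuclei and ribosomal protein genes at 32268 against 1841 CPM, and its part in the members' level was not tested.

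A given amount of free RNA per droplet is a larger share of a shallow nucleus. In sham control, with classes mixed, the members made up 6740 CPM in called nuclei of up to 2000 UMIs and 2711 CPM in those over 16000 UMIs. Median depth there was 2025 UMIs in oligodendrocyte-like and 8543 UMIs in neuronal nuclei, so class and depth cannot be told apart in these values. About 6.98 member UMIs per nucleus were what a droplet without a nucleus would give at the median depth of barcodes of 200 to 1000 UMIs. Oligodendrocyte-like nuclei held 12.6 member UMIs each at a median depth of 2144 UMIs, so free RNA equals 55.3% of their members' UMIs. The like share was 51.2% in microglia-like, 45.8% in precursor-like, 27.4% in astrocyte-like, 22.4% in neuronal and 11.6% in endothelial-like nuclei, where each nucleus held 58.4 member UMIs. With that amount subtracted, levels were 2425 CPM in oligodendrocyte-like, 2690 in microglia-like, 2178 in precursor-like and 2314 in neuronal nuclei, so that the first went from 1.63-fold to 1.05-fold of neuronal nuclei and the precursor-like class from 1.27-fold to 0.941-fold. In sham control, day 1 and the libraries labelled day 3 and day 7, these subtracted ratios were 1.04, 0.891, 1.16 and 1.04 in oligodendrocyte-like nuclei. In precursor-like nuclei they were 0.831, 0.805, 1.19 and 0.821, so the side of 1 differed between libraries in both classes. Astrocyte-like nuclei stayed at 4411 CPM (1.91-fold) and endothelial-like at 10314 CPM (4.46-fold).

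**Figure D3:**
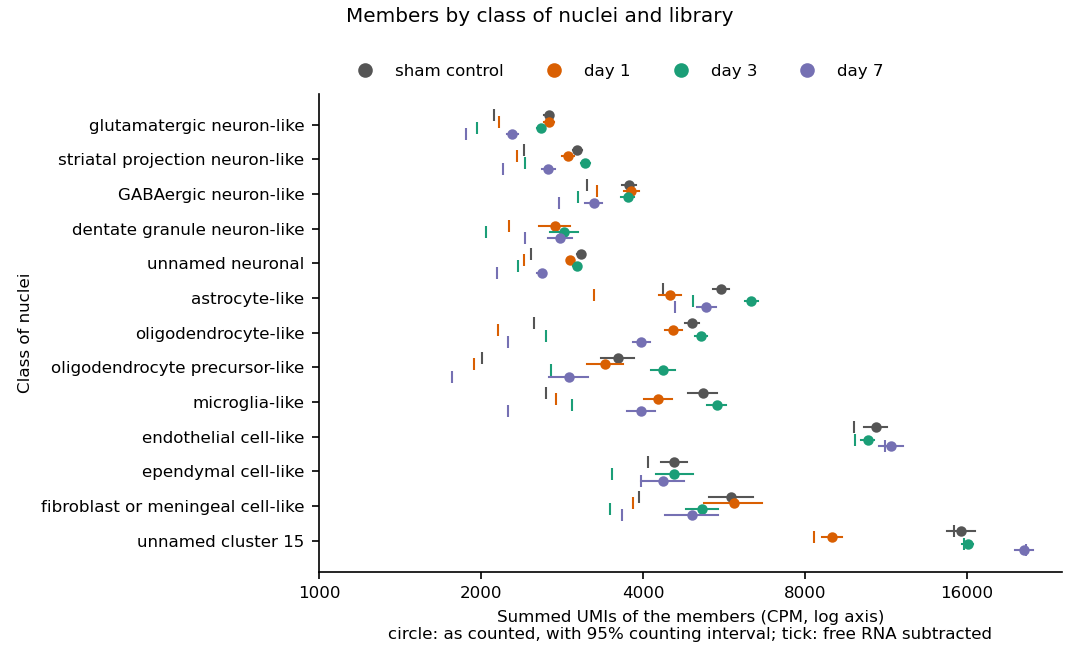
Summed UMIs of the members (CPM, log axis) by class of nuclei, with 1 circle per library as counted, bars for the 95% counting interval and ticks for the level after free RNA was subtracted; classes with under 10 nuclei in a library are not drawn there. The endothelial-like class and unnamed cluster 15 lie to the right of all others. The ticks of oligodendrocyte-like, precursor-like and microglia-like nuclei fall back to the range of neurons, except 1 below it. That is the precursor-like tick of the library labelled day 7 (1767 CPM, against 1879 CPM for the lowest neuronal tick).

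The endothelial-like class was 1 cluster of 139 nuclei led by Flt1, Slco1a4, Cldn5 and the pericyte gene Rgs5, and markers of mural cells, which wrap the vessel, summed to 4065 CPM in it beside 15345 CPM for endothelial markers. In neuronal nuclei the mural markers summed to 25.9 CPM and in astrocyte-like nuclei to 156 CPM. More mural than endothelial markers were detected in 3 of the 139 nuclei, and the part of mural RNA in the members' level was not tested. A further cluster of 151 nuclei, number 15, stayed unnamed. Its leading genes were Hspa1a, Hspa1b, Ttr, Aldoc and the mitochondrial mt-Rnr2, and its closest class was astrocyte. Markers of astrocytes (5515 CPM) and of choroid plexus (6739 CPM) were both high in it. The library labelled day 3 gave 57.0% of this cluster and 3093 of all 7798 nuclei. The member level of cluster 15 was above that of endothelial-like nuclei over all libraries and in all but day 1, with 15602 CPM in sham control, 8973 at day 1, 16049 in the library labelled day 3 and 20430 in the library labelled day 7, along with 33848 CPM of mitochondrial mRNAs. With 1.94% of nuclei it gave 5.69% of the members' nuclear UMIs. Cox8a alone reached 1367 CPM in it, against 251 in astrocyte-like and 69.9 in neuronal nuclei. The part of its mitochondrial RNA in the members' level was not tested.

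Among neurons the GABAergic-like nuclei were highest in every library. Their level was 3775 CPM in sham control, 3808 at day 1, 3748 and 3237 in the libraries labelled day 3 and day 7, against 2675, 2678, 2584 and 2286 in glutamatergic-like nuclei. The ratio ran from 1.41 to 1.45, and was 1.52 over all libraries after subtraction of free RNA (1.43 before). Of 84 members counted, 82 were higher in GABAergic-like nuclei, against 61.7% of all genes, with a median log2 ratio of 0.47 against 0.14. Mitochondrial mRNAs were higher as well, at 1250 CPM in GABAergic-like against 863 in glutamatergic-like nuclei over all libraries (2304 against 1079 at day 1), as were ribosomal protein genes at 2127 against 1671 CPM, and their part was not tested. GABAergic-like nuclei were shallower in every library, with a median of 8323 UMIs over all libraries against 9928 in glutamatergic-like nuclei, and over all nuclei of sham control, with classes mixed, the member level was 4070 CPM in those of over 4000 to 8000 UMIs and 2946 CPM in those of over 8000 to 16000. The part of depth in this ratio was not tested. Striatal-projection-neuron-like nuclei lay between both, 1.08-fold to 1.21-fold above glutamatergic-like nuclei by library, with 74 of 84 members higher over all libraries against 47.7% of all genes.

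The complexes took different shares of the members' UMIs across classes, for which free RNA had 1.74% in complex I assembly factors and 22.9% in complex IV. Complex I assembly factors gave 7.55% of member UMIs in neuronal nuclei, 4.35% in oligodendrocyte-like, 4.39% in astrocyte-like and 2.14% in endothelial-like nuclei, though their level differed little (218, 205, 246 and 234 CPM). Complex IV gave 16.3% in neuronal, 20.8% in astrocyte-like and 21.2% in endothelial-like nuclei and 29.9% in unnamed cluster 15. Complex I subunits made up 33.2% to 36.9% in astrocyte-like, neuronal, oligodendrocyte-like, microglia-like, endothelial-like and fibroblast-like nuclei.

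Several isoform genes differed between classes. Cox4i2, the subunit 4 isoform known from lung and oxygen sensing, had 64.5 CPM (47.5 to 85.5) in endothelial-like nuclei, on 48 UMIs, against 0.600 CPM in neuronal nuclei. By library it was 97.1 CPM in sham control, 92.2 at day 1, 32.7 and 123 in the libraries labelled day 3 and day 7, on 15, 3, 14 and 16 UMIs, and without the library labelled day 3 it was 107 CPM. Ndufa4l2, a hypoxia-responsive relative of Ndufa4 and a known pericyte gene, had 114 CPM (91.2 to 141) in endothelial-like and 58.0 CPM (35.5 to 89.6) in fibroblast- or meningeal-like nuclei, and 0.469 CPM in neuronal nuclei. By library, in the order above, endothelial-like nuclei had 155, 0, 84.1 and 193 CPM, and fibroblast- or meningeal-like nuclei 147, 0, 48.7 and 16.2 CPM. The latter class held 11 of its 20 UMIs in sham control, without which its level was 33.4 CPM. It was found in 44 of the 139 endothelial-like nuclei at a median depth of 3393 UMIs, while 25 UMIs of it lay over 4948 neuronal nuclei at a median depth of 8988. All 3 endothelial-like nuclei with more mural than endothelial markers detected held it. In the fibroblast- or meningeal-like cluster, 15 of the 16 nuclei with Ndufa4l2 had more mural than endothelial markers, against 37 of the 88 without it. Cox7a2l, which joins complexes III and IV into supercomplexes, was 90.0 CPM in endothelial-like against 15.8 CPM in neuronal nuclei.

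Cox6a2, the heart and muscle isoform of subunit 6a, is known in brain from parvalbumin interneurons. Of its 115 nuclear UMIs, 35 lay in GABAergic-like nuclei, where it reached 7.70 CPM (5.36 to 10.7) against 1.10 CPM (0.639 to 1.76) in glutamatergic-like nuclei. By library the GABAergic-like level was 13.7, 7.27, 2.32 and 8.15 CPM in sham control, day 1 and the libraries labelled day 3 and day 7, each above the glutamatergic-like level of 1.77, 0.703, 1.04 and 0.681. In free RNA it had 18.9 CPM. Its ubiquitous counterpart Cox6a1 ranged over the named classes from 31.2 CPM in glutamatergic-like to 168 CPM in endothelial-like nuclei. Cox7b2 was 8.04 CPM (7.30 to 8.84) in neuronal and 9.95 CPM (6.24 to 15.1) in astrocyte-like nuclei but 1.59 CPM (0.516 to 3.71) in oligodendrocyte-like nuclei. Cox6b2, known from testis, had 28.3 CPM (16.8 to 44.8) in ependymal-like, 29.0 CPM (13.9 to 53.4) in fibroblast- or meningeal-like and 10.9 CPM (6.96 to 16.2) in astrocyte-like nuclei, against 0.638 CPM in neuronal nuclei. In the fibroblast- or meningeal-like class 7 of its 10 UMIs came from the library labelled day 3, without which it was 16.6 CPM. Cox8b, the muscle isoform of subunit 8, had 16 nuclear UMIs in all, of which 5 lay in the 69 ependymal-like nuclei (2 of them outside the library labelled day 7), and Cox7a1, also known from muscle, had 52, of which 37 were in neuronal nuclei at 0.694 CPM. In the ependymal-like class, markers of choroid plexus summed to 13645 CPM. The ring subunit genes Atp5g1 (132 CPM) and Atp5g3 (122 CPM) were highest in endothelial-like nuclei among the named classes, while Atp5g2 ranged from 8.49 CPM in dentate-granule-like to 31.9 CPM in fibroblast- or meningeal-like nuclei. It had 12.1 CPM in endothelial-like nuclei, on 9 UMIs that all came from the library labelled day 3, and 11.1 CPM in neuronal nuclei.

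**Figure D4:**
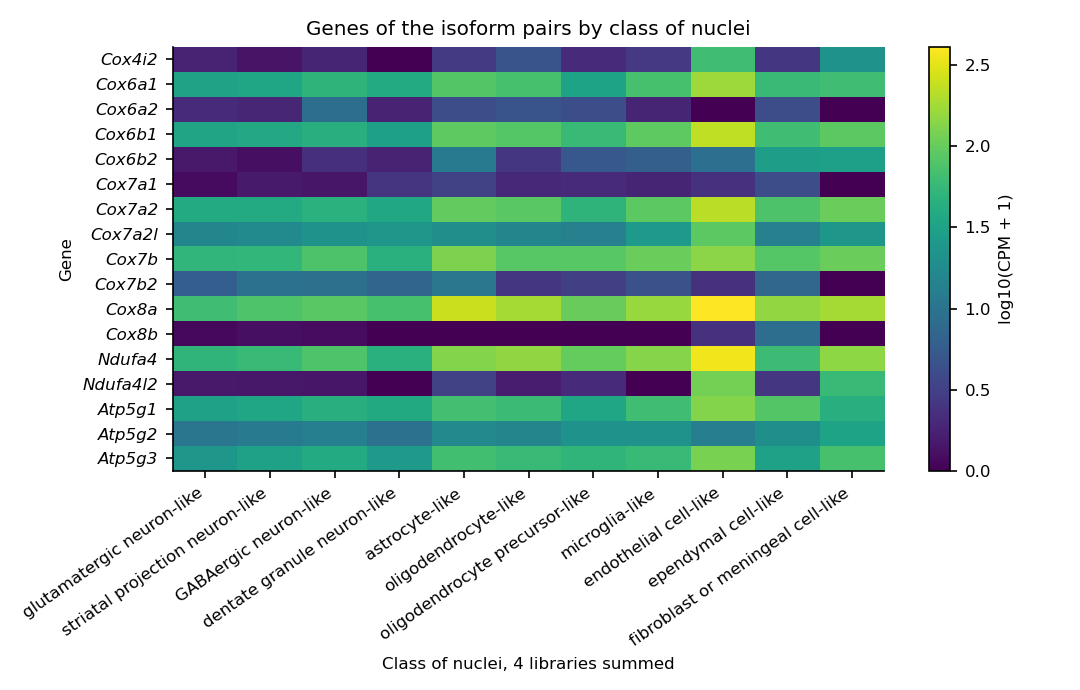
Level of 17 isoform genes (rows) in 11 named classes of nuclei (columns), as log10(CPM + 1) by colour over the 4 libraries summed. Cox4i2 and Ndufa4l2 are bright in the endothelial-like column at 64.5 and 114 CPM, and Cox6a2 stands out among neurons in the GABAergic-like column at 7.70 CPM.

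Against sham control, the members were lower in free RNA of 2 of the 3 libraries, while mitochondrial mRNAs were higher in all 3. The summed ratio to sham was 1.04 (1.03 to 1.04) at day 1, 0.857 (0.853 to 0.862) in the library labelled day 3 and 0.783 (0.779 to 0.788) in the library labelled day 7. For the 13 mitochondrial mRNAs it was 2.61, 1.83 and 1.88, and for ribosomal protein genes 1.26, 1.04 and 0.841. With free RNA taken from barcodes of 200 to 1000 UMIs alone, a choice made after seeing the data, the day 1 ratio was 0.987 and thus turned. All 3 ratios share the sham library. In free RNA fewer cells of a type and less RNA per cell cannot be told apart. Of the 89 members with at least 20 UMIs over both libraries, 53 lay above 1 at day 1, against 8567 of the 16820 genes counted. In the library labelled day 3 it was 7, against 7173 of 17483 genes, and in the library labelled day 7 it was 11, against 8807 of 16913. The median log2 ratio was 0.03, -0.21 and -0.35, against 0.01, -0.07 and 0.01 over all genes counted. Most differences were within 1.5-fold. At day 1, 4 members lay more than 1.5-fold higher, a share under the 8.31% of all genes, and 5 lower (5.64% of all genes). In the library labelled day 3, 0 lay higher (6.51% of all genes) and 7 lower (7.28%), and in the library labelled day 7, 1 lay higher (8.43%) and 9 lower (5.02%).

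**Figure D5:**
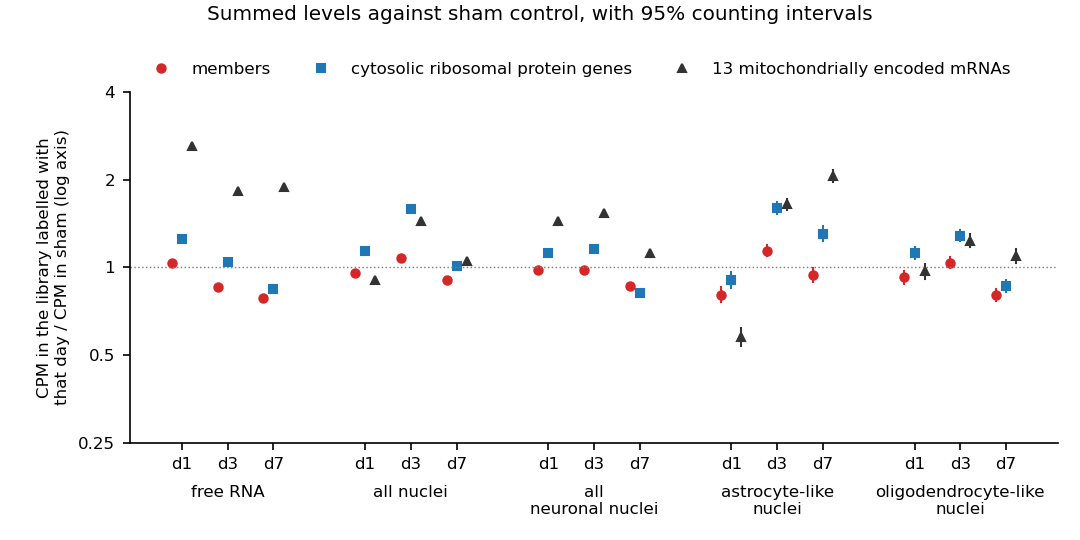
Ratio of the summed CPM to sham control (log axis) for the members (circles), ribosomal protein genes (squares) and mitochondrial mRNAs (triangles) in free RNA, all nuclei and 3 classes, with 95% counting intervals that are often smaller than the points; d1, d3 and d7 are the libraries labelled with that day. In free RNA the members lie at 1.04, 0.857 and 0.783 while the mitochondrial mRNAs lie at 2.61, 1.83 and 1.88.

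By complex, the free-RNA ratio at day 1 was 1.03 for complex I subunits, 1.06 for complexes III and IV, 1.02 for complexes II and V. In the library labelled day 3 the complexes lay between 0.844 (complex I subunits) and 0.893 (complex II). In the library labelled day 7 complex IV was lowest at 0.737 (0.728 to 0.747), complex III was 0.774 and complex I subunits 0.791, while complex II stood at 0.934 (0.896 to 0.973) and the assembly factors at 0.893. With Ndufa4 counted in complex IV, complex I subunits had 1.05, 0.843 and 0.795 and complex IV 1.04, 0.870 and 0.741, so the order of these 2 at day 1 turned. Of 33 carriers and assembly factors counted, 2 lay more than 1.5-fold higher at day 1 (6.06%, against 8.31% of all genes) and 2 lower in the library labelled day 3 (6.06%, against 7.28%) and 1 in the library labelled day 7 (3.03%, against 5.02%), and of the 11 regulators 1 lay lower, at day 1 (9.09%, against 5.64%). Marker lists moved in free RNA as well: those of choroid plexus went from 5354 CPM in sham control to 4192, 3901 and 3346, those of microglia from 433 to 674, 930 and 1054, and those of endothelial cells from 360 to 166, 369 and 188. Those of peripheral immune cells went from 42.7 to 61.0, 188 and 107. Lists of neurons went both ways, from 2987 to 2175, 2558 and 2364 for striatal projection neurons and from 1718 to 1744, 2060 and 1920 for glutamatergic neurons. Their part in the members' difference was not tested.

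In free RNA, Ndufb8 and Ndufs5, both accessory subunits of complex I, had the lowest 2 ratios to sham in each of the 3 libraries. Ndufb8 had 40.0 CPM in free RNA of sham control, 13.2 at day 1, 9.82 in the library labelled day 3 and 4.83 in the library labelled day 7, ratios of 0.330, 0.246 and 0.121. In nuclei its ratios were 0.286 (0.161 to 0.481), 0.396 (0.265 to 0.584) and 0.169 (0.0811 to 0.319), on 80 UMIs in sham control and 18, 41 and 11 in the others. Ndufs5 had 124, 58.4, 47.0 and 27.6 CPM in free RNA, ratios of 0.471, 0.379 and 0.223, and in nuclei 21.9, 14.3, 15.4 and 12.4 CPM. Both were lower than in sham control in all 3 libraries and both compartments, and both belong to the members whose counts overlap or share sequence with other genes. Atp5l, subunit g of ATP synthase, and Atp5g2 were the further 2 members past 1.5-fold lower in free RNA of all 3 libraries, with 0.572, 0.422 and 0.495 for Atp5l and 0.567, 0.661 and 0.612 for Atp5g2, and they share 75.2% and 23.1% of their 3′ stretches with other genes. Gm20538, which overlaps Ndufb8, had 8 UMIs in free RNA in all, and BC002163 had 0. The part of counting in these values was not tested. Without the 15 members that overlap a gene on the same strand or share 50% or more of those stretches, the summed ratios in free RNA were 1.04, 0.855 and 0.781. Ndufs5, at 43.5%, is not among the 15 and stayed in.

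In free RNA the members past 1.5-fold higher were 4 at day 1, 0 in the library labelled day 3 and 1 in the library labelled day 7. Ndufb2, an accessory subunit of complex I, had 47.2 CPM in free RNA of sham control, 109 at day 1 and 56.3 and 74.7 in the libraries labelled day 3 and day 7, with 2.31 (2.08 to 2.57) at day 1. Ndufab1, the mitochondrial acyl carrier protein and a subunit of complex I, had 105, 200, 119 and 134 CPM in free RNA and 17.9, 27.7, 22.4 and 22.8 CPM in nuclei. Its day 1 ratio was 1.91 (1.77 to 2.05) in free RNA, 1.55 (1.32 to 1.81) in all nuclei and 1.62 (1.35 to 1.955) in neuronal nuclei. Ndufb4 (1.87) and Ndufa12 (1.56) were the other 2 past 1.5-fold higher at day 1 in free RNA. In nuclei Ndufb4 lay the other way, at 10.1 CPM at day 1 against 12.3 in sham control, and Ndufa12 had 24.2 against 20.7 CPM. Beside the members named above, those past 1.5-fold lower in the library labelled day 7 were Ndufs3, a core subunit of complex I (0.458), Cox5b (0.630) and Cox7a2l (0.654). Ndufa4l2 (5.92 CPM against 10.3 in sham control) and Cox4i2 (5.01 against 7.65) were past it too.

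In all nuclei together the members were close to sham. The ratio was 0.960 (0.947 to 0.972) at day 1, 1.08 (1.07 to 1.09) in the library labelled day 3 and 0.903 (0.892 to 0.915) in the library labelled day 7, and without unnamed cluster 15 it was 0.943, 1.03 and 0.867. With every barcode over 1000 UMIs taken as a nucleus, the day 1 ratio turned to 1.08. Median depth of nuclei was 6335 UMIs in sham control, 10945 at day 1 and 5401 and 6995 UMIs in the libraries labelled day 3 and day 7. The part of depth in these ratios was not tested further. Of 88 members counted, 1 lay more than 1.5-fold higher at day 1 (7.89% of all genes) and 5 lower (5.81%). In the library labelled day 3, 2 lay higher (7.36%) and 3 lower (5.01%), and in the library labelled day 7, 0 higher (6.8%) and 3 lower (5.8%). Ribosomal protein genes in the library labelled day 3 had a summed ratio of 1.58 and 45 of 80 more than 1.5-fold higher. The 2 members past that fold there were Cox8a, 1.61 (1.51 to 1.71), and Ndufs6, an accessory subunit of complex I, 1.55 (1.32 to 1.82). Without unnamed cluster 15 Cox8a had a ratio of 1.38 (1.29 to 1.48) there. It was above sham in that library in neuronal (1.25), astrocyte-like (1.60) and oligodendrocyte-like nuclei (1.60, 1.29 to 1.99). Ndufa4l2 was counted with 48 UMIs in sham control but 3 in the day 1 library, a ratio of 0.0793 (0.0158 to 0.246), beside 6 endothelial-like nuclei at day 1 and 40 in sham control. The part of nuclei numbers in this was not tested, and within both endothelial-like and fibroblast- or meningeal-like nuclei (11 at day 1) it had 0 UMIs at day 1. Ndufb10, a complex I subunit, had 0.624 (0.543 to 0.716) in the library labelled day 7.

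Neuronal nuclei, with 660 to 1899 per library, had 3006 CPM in sham control and 2943, 2943 and 2593 CPM in the others, ratios of 0.979 (0.965 to 0.994), 0.979 (0.967 to 0.992) and 0.863 (0.850 to 0.876). The library labelled day 7 was the lowest, and the ratio in the library labelled day 3 crossed 1 under another scaling (1.02 by TMM), while the day 1 ratio was 1.000 with free RNA subtracted. Median depth was 8543 UMIs in sham control, 14480 at day 1 and 7814 and 9388 UMIs in the libraries labelled day 3 and day 7. The part of depth here was not tested further. At day 1, 1 of 85 members lay more than 1.5-fold higher (8.36% of all genes) and 2 lower (4.27%), and in the library labelled day 3, 0 of 87 higher (4.4%) and 3 lower (5.78%). In the library labelled day 7, 0 of 85 lay higher (6.26%) and 10 lower (6.47% of all genes, 11.8% of the members). These 10 came from 4 complexes and were Ndufb8, Ndufs5, Ndufa8 and Ndufb10 in complex I, Uqcr11 and Uqcrb in complex III, Cox5b and Cox6a2 in complex IV and Atp5d and Atp5sl of the complex V list. Ribosomal protein genes were lower as well there, with a summed ratio of 0.815. The day 7 ratio was 0.855 in glutamatergic-like, 0.858 in GABAergic-like, 0.884 in striatal-projection-neuron-like and 0.844 in unnamed neuronal nuclei. Cox6a2 had 2.68 CPM in neuronal nuclei of sham control and 1.37, 0.922 and 1.34 CPM in the others, on 37, 15, 16 and 15 UMIs. Sdhd, a membrane anchor of complex II, was low in striatal-projection-neuron-like nuclei, at 0.209 (0.0730 to 0.487) of sham at day 1 and 0.425 (0.239 to 0.728) in the library labelled day 3.

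Glial classes moved more between libraries, on fewer UMIs. Oligodendrocyte-like nuclei had 4936 CPM in sham control and 4557, 5123 and 3974 CPM in the others, ratios of 0.923, 1.04 and 0.805 (0.767 to 0.845). Of the members counted, 5 of 77 lay more than 1.5-fold higher at day 1 (10.7% of all genes) and 12 lower (14.2%), 3 of 80 higher in the library labelled day 3 (12.7%) and 4 lower (8.17%), and 1 of 76 higher in the library labelled day 7 (8.04%) and 18 lower (14.7%). Lowest in the last were Ndufs5 (0.262), Ndufb10 (0.338, 0.191 to 0.572) and Ndufa11 (0.420, 0.251 to 0.681). With free RNA subtracted, the level was 2514 CPM in sham control, 2150 at day 1 and 2644 and 2248 CPM in the libraries labelled day 3 and day 7. The last is a ratio of 0.894, and day 1 was then the lowest library. Median depth was 2025 UMIs in sham control, 3094 at day 1 and 1867 and 2404 UMIs in the libraries labelled day 3 and day 7. The parts of depth and of free RNA in these differences were not tested further.

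Astrocyte-like nuclei had 5581 CPM in sham control, 4493 at day 1 (57 nuclei) and 6361 and 5249 CPM in the libraries labelled day 3 and day 7, ratios of 0.805 (0.760 to 0.853), 1.14 (1.09 to 1.19) and 0.941 (0.892 to 0.992). Their median depth was 2988, 5340, 2836 and 3573 UMIs in the same order of libraries. The part of depth in these ratios was not tested further. Mitochondrial mRNAs of these libraries had 5004, 2888, 8236 and 10313 CPM and ribosomal protein genes 4173, 3782, 6669 and 5445 CPM, with 45 of 74 ribosomal protein genes more than 1.5-fold higher in the library labelled day 3, and their part in the members' ratios was not tested. At day 1, 3 of 73 members lay more than 1.5-fold higher (10.1% of all genes) and 22 lower (17.6% of all genes, 30.1% of the members). In the library labelled day 3, 9 of 78 lay higher (10.1%) and 6 lower (13.9%), and in the library labelled day 7, 5 of 75 higher (10.6%) and 13 lower (16.8%). Ndufs6 (2.45, 1.28 to 4.99) and Cox8a (1.60, 1.30 to 1.99) were high in the library labelled day 3, and Ndufs3 was low at day 1 (0.392, 0.183 to 0.770). With unnamed cluster 15 added, the ratios turned to 0.936, 1.45 and 1.32, so the direction in the library labelled day 7 depends on whether that cluster is counted as astrocyte. Without that cluster it also turned there when free RNA was subtracted (1.05) and with clustering without integration (1.06). In microglia-like nuclei the ratio was 1.06 (0.988 to 1.14) in the library labelled day 3 and 0.769 (0.705 to 0.838) in the library labelled day 7, and precursor-like nuclei had 1.21 (1.11 to 1.33) in the library labelled day 3. With free RNA subtracted, microglia-like nuclei had 2643 CPM in sham control and 2956 and 2241 CPM in the libraries labelled day 3 and day 7. Precursor-like nuclei then had 2006 CPM in sham control and 2699 CPM in the library labelled day 3.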

How the data were processed

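Single nuclei were sequenced with the 10x 3′ assay from 4 libraries, each of 3 pooled hemispheres and the only library of its group. The authors aligned reads with STAR 2.7.3a to mouse GRCm38 with GENCODE annotation and counted UMIs over exons and introns, and the deposited values are raw UMI counts for every barcode, with no free-RNA correction. Strand setting and treatment of multi-mapping reads are not given in the sources used here. All columns belonged to a sample (0 did not).

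From these counts, barcodes of at most 1000 UMIs were taken as free RNA, and nuclei were called above that by a Monte Carlo comparison with the free-RNA profile in the manner of emptyDrops (10000 draws, false discovery rate 0.001). Doublets were removed at an assumed 0.8% per 1000 nuclei. Nuclei were normalised with sctransform 0.4.2, integrated over 2883 features (3000 requested) and clustered with Seurat 5.3.0 in R 4.3.3 (30 components, resolution 0.8, 30 clusters). A cluster was named, with "-like", from at least 3 marker genes and a lead of 0.5 over the next class, and stayed unnamed where mitochondrial genes were among its leading genes, a rule set after the clusters were seen. Sums used Python 3.11.15, numpy 2.4.6, scipy 1.17.1, scikit-learn 1.9.0, scanpy 1.11.5 and matplotlib 3.10.9.

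UMIs were summed per library and class (for day comparisons only where both libraries held at least 50 nuclei of the class), scaled to CPM and divided by sham control. Members with at least 20 UMIs over both libraries were counted, and past 1.5-fold is a size and not a test. Intervals are exact Poisson or binomial at 95%. Scripts were tested on simulated data. Gene positions, overlaps and shared stretches are those of a later GENCODE release of GRCm38 than the paper names for its counting. The genes that overlap Atp5o and Ndufb9 on the same strand are not in the count tables. Kinases of the Rps6k family were left out of the ribosomal protein list. The members and all lists were chosen with earlier results of these data known. Named members were the 3 of each complex highest in free RNA, the 5 highest and lowest ratios of nuclei to free RNA, isoform pairs, and members at the ends of the day comparisons that recurred or had an interval off 1. Carriers, assembly factors and regulators outside the members were named after their values were seen. Alternatives concerned nuclei, free RNA, doublets, clustering, scaling, depth and low counts. Isoform levels with each library left out were added after seeing the data.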

Additional observations from a re-analysis of the deposited data

How the results depend on the processing

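No paired analysis was possible because each group holds 1 library, and for the same reason no replicate could be left out. Of the alternatives, 476 values stayed within their counting interval, within 0.1 (log2) for medians or within 1.5 times for counts, 163 moved further and 10 changed direction. A change of direction was counted only for ratios whose interval left out 1 and for medians of over 0.1 (log2) in size. Ratios nearer to 1 that crossed it are not among the 10. The ratio of nuclei to free RNA was below 1 in all of them. In sham control, day 1 and the libraries labelled day 3 and day 7 it was 0.162, 0.168, 0.236 and 0.202 with every barcode over 1000 UMIs as a nucleus, 0.125, 0.111, 0.158 and 0.136 with free RNA from barcodes of at most 100 UMIs, 0.164, 0.160, 0.203 and 0.193 from barcodes of 200 to 1000 UMIs (chosen after seeing the data), and 0.152, 0.140, 0.180 and 0.169 without the 25 to 163 nuclei per library over 5% mitochondrial UMIs.

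Class levels were 3596 CPM in GABAergic-like nuclei with every barcode over 1000 UMIs, 5413 CPM in astrocyte-like nuclei with doublets kept, and, with clustering without integration, 2839 in striatal-projection-neuron-like, 4886 in oligodendrocyte-like, 3476 in precursor-like, 4965 in astrocyte-like and 3910 in microglia-like nuclei.

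In free RNA the ratio to sham at day 1 was 1.03 by TMM, 1.02 by median of ratios, 1.09 with barcodes of at most 100 UMIs and 0.987 with those of 200 to 1000, which reversed it. For the library labelled day 3 it was 0.901 by TMM, 0.907 by median of ratios and 0.873 with barcodes of 200 to 1000 UMIs, and for the library labelled day 7 0.775 by TMM, 0.835 with at most 100 UMIs and 0.769 with 200 to 1000.

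In all nuclei the ratios for day 1, day 3 and day 7 labels were 0.938, 1.11 and 0.922 by TMM, 0.939, 1.11 and 0.923 by median of ratios, 0.931, 1.11 and 0.879 as mean share per nucleus, 0.930, 1.12 and 0.879 thinned to 1000 UMIs, and 0.975, 1.07 and 0.952 with free RNA subtracted. Every barcode over 1000 UMIs gave 1.08 (reversed), 1.25 and 0.977, and leaving out nuclei over 5% mitochondrial UMIs gave 1.01 and 0.868 for the labels day 3 and day 7. At a minimum of 50 UMIs 3 members lay past 1.5-fold lower at day 1, and with 1 UMI in each library 1 lay past it higher in the library labelled day 7.

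Neuronal nuclei at day 1 with free RNA subtracted, which is among the 10, came to 1.000, no difference from sham. Further reversals were neuronal nuclei in the library labelled day 3 by TMM and by median of ratios (1.02 in both, glutamatergic-like nuclei 1.01 in both), astrocyte-like nuclei in the library labelled day 7 with clustering without integration (1.06) or free RNA subtracted (1.05), and striatal-projection-neuron-like nuclei at day 1 when thinned (1.02). The cause of these changes was not tested. Scaling moved the median of all genes by over 0.1 (log2) once, by -0.105 with TMM in oligodendrocyte-like nuclei of the library labelled day 7. Counts of a few UMIs limit the isoform genes and the glial classes.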
